A study of Mus musculus with 4 samples.

Results

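The cathepsin genes of mouse macrophages are described here: 10 genes chosen by symbol (Ctsa, Ctsb, Ctsc, Ctsd, Ctse, Ctsh, Ctsk, Ctsl, Ctss and Ctsz) among 55536 annotated genes. The rule is a list of symbols of this gene family, and 13 further cathepsin genes are outside it. Earlier results of these data were known when the list was set. The cells were bone marrow-derived macrophages of C57BL/6J mice, primary cells grown out of marrow, and every culture had received 100 ng/ml of lipid A for 15 minutes. This lipid part of bacterial lipopolysaccharide is what Toll-like receptor 4 binds. RNA of the cytosolic fraction, depleted of ribosomal RNA, was sequenced in 4 libraries labelled as biological replicates 1 to 4. They form 1 group, so no unstimulated cells and no nuclear fraction were compared here, and the values are levels in stimulated cells and differences between libraries. All 4 carry the same donor record, and separate animals or cultures are not mentioned in the labels. The p-values therefore measure only how these samples vary, which may be technical.

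Cathepsins are proteases that work mainly in endosomes and lysosomes, where they break down proteins taken up by the cell or delivered by autophagy. They are made as inactive precursors, carried from the Golgi by mannose 6-phosphate receptors and activated by removal of a propeptide in the acid compartment. The name covers unrelated folds: cysteine cathepsins belong to the papain family, cathepsins D and E to the pepsin family of aspartic proteases, and cathepsin A is a serine carboxypeptidase. In macrophages they digest engulfed material, trim the invariant chain and peptides for antigen presentation, and cut nucleic acid-sensing Toll-like receptors into their signalling form. Cystatins and related proteins inhibit the cysteine type.

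The types differ in the residue that carries out catalysis, and the coding sequence around it can be compared over a short stretch. Such a stretch does not give the resemblance of whole genes. The following 39-base stretches come from GENCODE M21 transcripts on mm10, the most abundant isoform of each gene, and the capitals mark the codon of the catalytic residue. They are shown because the 7 cysteine genes, which share this site, did not move together between the libraries. In the cysteine type the codon is that of the active-site cysteine.

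Ctsl: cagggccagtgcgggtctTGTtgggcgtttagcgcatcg
Ctsb: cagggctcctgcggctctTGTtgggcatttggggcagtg
Ctsk: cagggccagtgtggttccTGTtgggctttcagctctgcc
Ctss: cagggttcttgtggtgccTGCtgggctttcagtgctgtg
Ctsh: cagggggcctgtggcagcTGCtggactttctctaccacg
Ctsz: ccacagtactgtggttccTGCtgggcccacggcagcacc
Ctsc: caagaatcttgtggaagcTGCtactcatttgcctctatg

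Of the 39 bases, 30 were identical to those of Ctsl in Ctsb and in Ctsk, 24 in Ctss, 20 in Ctsh, 18 in Ctsz and 17 in Ctsc. The last 3 genes encode proteases that trim the ends of proteins: cathepsin H mainly removes single residues from the amino end, cathepsin Z from the carboxyl end, and cathepsin C removes dipeptides. The aspartic type has a pair of catalytic aspartates, of which the second is shown, and the serine type has a serine.

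Ctsd, second site: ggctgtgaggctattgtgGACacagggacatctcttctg
Ctse, second site: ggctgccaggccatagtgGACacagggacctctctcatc
Ctsa: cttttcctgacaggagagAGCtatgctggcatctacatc

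Promoter windows of 300 bases, 250 before and 50 after the start site, were taken from RefSeq on GRCm38.p6 and held 8 windows for 7 members (Ctsa, Ctsc, Ctsd, Ctsk, Ctsl, Ctss and Ctsz). CACGTG, the palindromic E-box at the core of the element bound by the MiT transcription factors of lysosomal genes, occurred in 3 of these 8 windows, against 7.15% of all 32851 windows in that table. It was found for Ctsa, Ctsd and Ctsl, which encode a serine, an aspartic and a cysteine protease. The longer TCACGTGA, which contains it, occurred for Ctsa and Ctsd, against 0.974% of all windows. GAGGAAGT, searched on both strands, occurred for Ctsc and Ctss, against 3.20% of all windows. The stretches with the E-box in capitals are shown because the genes that carry it had log2 folds of both signs in replicate 1, as given further on.

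Ctsa, chr2:164833737-164833772, plus strand: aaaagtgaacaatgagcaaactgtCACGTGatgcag
Ctsd, chr7:142388043-142388077, minus strand: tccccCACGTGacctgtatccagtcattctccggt
Ctsd, chr7:142387896-142387949, minus strand: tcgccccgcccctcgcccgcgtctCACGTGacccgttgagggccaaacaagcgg
Ctsl, chr13:64370727-64370770, minus strand: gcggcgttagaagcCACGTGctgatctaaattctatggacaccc

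The E-box began 12 bases before the listed start site in Ctsa, which holds another 5 bases after it, 245 and 98 bases before it in Ctsd, and 236 bases before it in Ctsl. All but the first Ctsd stretch lie inside the GENCODE M21 spans of these genes, which therefore start further upstream than the listed sites. The E-boxes are matches of letters, and nothing on binding was measured.

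The libraries held 30088678 to 47961117 expected counts on annotated genes, the shallowest being replicate 1 and the deepest replicate 2. Expected counts are reads that the authors' pipeline shared out among transcripts. Divided by the library's total they give CPM, and a count of 0 would allow at most 0.0997 CPM in replicate 1 and 0.0626 in replicate 2, from counting error alone. The pair of 7SL RNA genes took 57.1% to 63.3% of the TPM, an abundance corrected for transcript length, and this lowers the TPM of every other gene. Of the macrophage markers 8 of 8 reached a mean of 1 TPM, and markers of T cells, B cells, dendritic cells, mast cells and basophils, erythroid cells and stromal cells did not. Of 5 neutrophil and progenitor markers, S100a8 and S100a9 reached it, with a summed TPM of all 5 between 19.0 and 34.8, and Ly6g was at 0 in 3 libraries. Replicate 1 stood apart: 3096 of 14041 genes tested (22.0%) differed between it and the other 3 libraries, and no gene was called for any of the others by edgeR's quasi-likelihood test at an adjusted p under 0.05 with all 4 libraries in the fit. The coefficient of variation that the genes have in common beyond counting error was 0.327 over all 4 libraries and 0.226 without replicate 1.

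All 10 cathepsin genes had counts in every library, and 9 of 10 reached a mean of 1 TPM. Their means spanned 7714-fold, and the members summed to 3.68% ± 0.239 (SD, n = 4) of the expected counts. Fewer cells that express a gene and less RNA per cell cannot be told apart in such bulk samples.

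The aspartic type held the highest and the lowest member. Ctsd, the main aspartic protease of lysosomes, had 4058, 3750.3, 3950.1 and 5057 TPM in replicates 1 to 4, a mean of 4204 ± 583 (SD, n = 4), and was the 11th most abundant of all genes by mean TPM. Ctse, an endosomal relative found mostly in the stomach and in some immune cells, had 0.22, 0.48, 0.37 and 1.11 TPM, from 20, 86, 53 and 140 counts. Replicate 4 was the highest for both genes in these TPM, which are those of the gene tables. Ctsa, the serine carboxypeptidase that also protects β-galactosidase and neuraminidase 1 in a lysosomal complex, had 345, 336, 381 and 444 TPM, a mean of 376 ± 49.3 (SD, n = 4).

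Among the cysteine cathepsins, Ctsb came first with 2500.1, 2331, 2398 and 3549 TPM, a mean of 2694 ± 574 (SD, n = 4), directly below Ctsd in the ranking of all genes. Cathepsin B cuts within proteins and also removes dipeptides from their carboxyl end. Ctss, which encodes the protease that performs the last cut of the invariant chain in antigen-presenting cells, had 999, 787, 855 and 1071 TPM (928 ± 130, SD, n = 4). Ctsz followed with 405, 449, 476 and 604 TPM (484 ± 85.2, SD, n = 4). In these 3 genes replicate 4 was the highest library in the gene-table TPM.

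Ctsl, an endopeptidase of broad range, had 608, 165, 181 and 220 TPM, so that replicate 1 lay far above the other 3, which were close together. Ctsh had 85.4, 105, 125 and 152 TPM, with replicate 1 the lowest in the gene tables. Ctsc had 90.0, 43.3, 44.4 and 79.1 TPM, with replicates 1 and 4 above the other pair. Ctsk, the collagen-degrading protease of osteoclasts, was low, at 1.46, 0.90, 1.26 and 1.37 TPM from 90 to 125 counts. Osteoclast markers were likewise low: 1 of 5, Acp5, reached a mean of 1 TPM, the summed TPM of the 5 ran from 1.36 to 2.17, Dcstamp and Ocstamp had at most 23 and 4 counts, and Calcr was at 0 in all 4 libraries.

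The TPM of a gene depended on the table, and for most members so did the library in which it was highest. The target tables, in which TPM is taken directly from reads, gave lower means for each of the 10 genes, 1439 TPM for Ctsd, 1219 for Ctsb and 325 for Ctss. In them replicate 1 was the highest library for 9 of 10, Ctse being highest in replicate 4. Ctsd had 2064 TPM in replicate 1 and 1326 in replicate 4 there, Ctsb 1701 and 1191, Ctss 520 and 288, and Ctsz 210.2 and 163. Ctsh had 50.4, 37.7, 34.9 and 44.6 TPM in the target tables, so that replicate 1 was its lowest library in the gene tables and its highest here. Ctsl, Ctsc and Ctsk were highest in replicate 1 in both kinds of TPM, and Ctse in replicate 4. For the remaining members the highest library was not a stable result, and libraries are compared below on TMM-scaled counts.

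**Figure D1:**
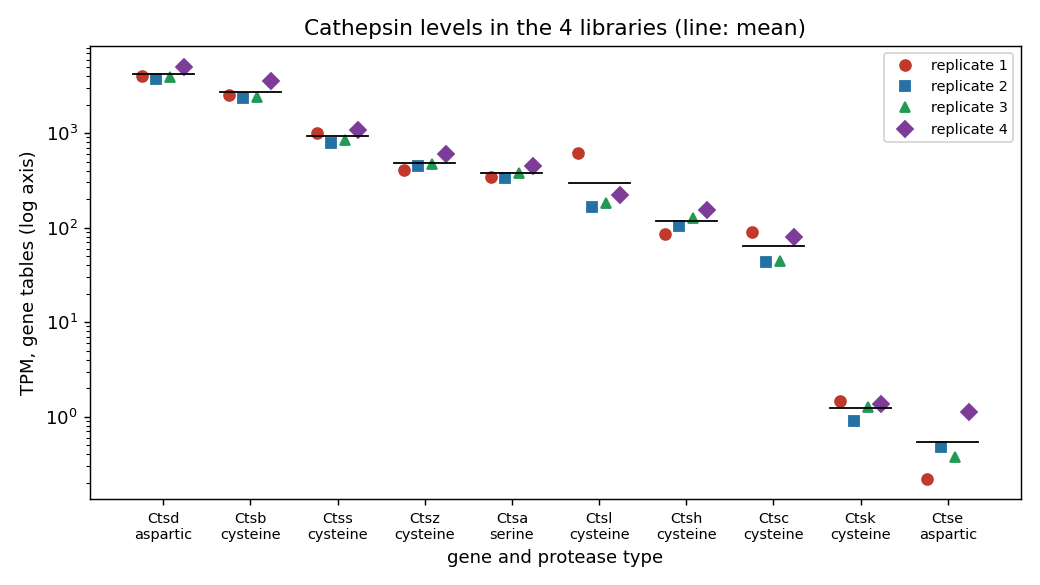
TPM from the gene tables (log axis) of the 10 cathepsin genes, ordered by mean; each symbol is 1 library and the black line is the mean of 4. Ctsd and Ctsb lie at 2331 TPM or higher in every library, Ctse and Ctsk lie at or below 1.46 TPM, and replicate 1 is set apart for Ctsl, at 608 TPM against 165 to 220.

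In the order of mean TPM (Ctsd, Ctsb, Ctss, Ctsz, Ctsa, Ctsl, Ctsh, Ctsc, Ctsk, Ctse), 5 of 9 neighbouring pairs had ranges that did not overlap: Ctsd above Ctsb, Ctsb above Ctss, Ctss above Ctsz, Ctsl above Ctsh and Ctsc above Ctsk. Ctsz and Ctsa overlapped over the 4 libraries, although Ctsz was the higher in 4 of 4. The same held for Ctsk above Ctse. Ctsa and Ctsl kept their order in 3 of 4 libraries, since Ctsl exceeded Ctsa in replicate 1. Ctsh and Ctsc also kept theirs in 3 of 4, Ctsc being the higher in replicate 1. An exact two-sided sign-flip permutation over 4 libraries cannot give a p below 0.125, so none of these orders can pass a threshold of 0.05. Ctsk and Ctss are neighbours on chromosome 3, with 17423 bases between them on mm10 (95499256 to 95509362 and 95526786 to 95556403), and their mean TPM were 1.25 ± 0.246 and 928 ± 130 (SD, n = 4). By the mean TPM of the target tables the order was the same but for Ctsl (137) above Ctsa (135). There Ctsl exceeded Ctsa in replicate 1 alone, at 358 against 185 TPM, and lay below it in replicates 2 to 4.

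The aspartic type took 44.6%, 47.1%, 47.0% and 45.3% in replicates 1 to 4, a mean of 46.0% ± 1.23 (SD, n = 4), nearly all of it Ctsd. Cysteine cathepsins took 51.6%, 48.7%, 48.5% and 50.8% (49.9% ± 1.52, SD, n = 4). The serine type, Ctsa alone, took 3.79%, 4.21%, 4.52% and 3.97% (4.13% ± 0.317, SD, n = 4). Replicate 1 had the lowest aspartic and serine shares and the highest cysteine share of the gene-table TPM. In expected counts the lowest aspartic share (35.2%) and the highest cysteine share (61.8%) were those of replicate 2, next to 35.6% and 61.6% in replicate 1. Within the cysteine type, the Ctsl share of all cathepsin TPM was 6.69% in replicate 1 and 1.96% to 2.15% in the others, while Ctsb took 27.5% in replicate 1 and 28.5% to 31.8% in the others. Ctsb and Ctsd together made up 75.2% ± 2.16 (SD, n = 4). The shares of expected counts, which weight long transcripts more, were 35.8% aspartic, 61.3% cysteine and 2.94% serine. In the TPM of the target tables they were 41.5% aspartic and 54.5% cysteine. The near-equality of aspartic and cysteine type thus holds for the gene-table TPM only.

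To compare libraries, counts were scaled by edgeR's TMM factors into CPM, and each library was tested against the other 3 across all 14041 genes. For replicate 1, 4 of the 10 cathepsins were called, 2 higher and 2 lower, against a background of 22.0% of all genes tested (14.5% higher and 7.58% lower). The called genes were all of the cysteine type, to which most of the members belong. A difference between the types in this respect was not tested. The median log2 fold of the members was -0.35, beside -0.005 for all genes, and their median absolute log2 fold was 0.46, beside 0.39.

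Ctsl had 1491, 577, 638 and 515 CPM in replicates 1 to 4. It was 2.59-fold higher in replicate 1 than in the other 3 (log2 fold 1.37 ± 0.15 SE, edgeR adjusted p = 0.00634), and the value of replicate 1 was more than the sum of any pair of the others. Ctsc had 309, 206, 204 and 240 CPM and was 1.42-fold higher (log2 fold 0.51 ± 0.13 SE, edgeR adjusted p = 0.0466). Ctsh went the other way, with 158, 265, 308 and 255 CPM, and was 1.75-fold lower in replicate 1 (log2 fold -0.81 ± 0.15 SE, edgeR adjusted p = 0.0203). Ctsz, with 736, 1117, 1192 and 1020.1 CPM, was 1.51-fold lower (log2 fold -0.59 ± 0.15 SE, edgeR adjusted p = 0.0480). In each of these 4 genes replicate 1 lay outside the range of the other 3. They lie on different chromosomes of mm10: Ctsl on chromosome 13 (64359337 to 64370890), Ctsc on chromosome 7 (88278085 to 88310888), Ctsh on chromosome 9 (90054152 to 90076089) and Ctsz on chromosome 2 (174427493 to 174439039).

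The calls for Ctsl and Ctsh held in 12 of 12 settings of scaling, filter, tool, count table and libraries, with log2 folds from 1.22 to 1.52 and from -0.94 to -0.64. Those for Ctsc and Ctsz were near the threshold and held in 5 and 7 of the 12 settings. Without replicate 2 the edgeR adjusted p became 0.0831 for Ctsc and 0.143 for Ctsz, and without replicate 3 it became 0.0982 and 0.0768, which left Ctsl and Ctsh as the members called. Without replicate 4, 7 members were called, as also by DESeq2 with all 4 libraries, the added ones being Ctsa, Ctsb and Ctsd. Leaving out replicate 4, their log2 folds were -0.57, -0.55 and -0.44.

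With all 4 libraries those 3 abundant genes did not pass edgeR's test. Ctsd had 11183, 13947, 14749 and 12919 CPM, with the lowest value in replicate 1 (log2 fold -0.31 ± 0.18 SE, edgeR adjusted p = 0.282). Ctsb had 14989, 20473, 21213 and 17420.3 CPM (log2 fold -0.39 ± 0.21 SE, edgeR adjusted p = 0.239). Ctsa had 873, 1169, 1282 and 1034 CPM (log2 fold -0.41 ± 0.17 SE, edgeR adjusted p = 0.152). Replicate 1 was thus below the other 3 in the aspartic, the serine and the most abundant cysteine gene, but none of these differences passed the test.

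For 2 cysteine genes replicate 1 lay within the range of the others. Ctss had 1686, 1819, 1989 and 1685 CPM (log2 fold -0.12 ± 0.16 SE, edgeR adjusted p = 0.620). Ctsk had 2.82, 2.36, 3.33 and 2.45 CPM (log2 fold 0.05 ± 0.32 SE, edgeR adjusted p = 0.916). Ctse was lowest in replicate 1, at 0.626 CPM against 1.86, 1.41 and 2.91, but its low counts gave a wide error (log2 fold -1.72 ± 0.59 SE, edgeR adjusted p = 0.103).

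For replicates 2, 3 and 4 no cathepsin was called by edgeR, none at an unadjusted p under 0.05, and none by DESeq2 or limma voom. Over all genes the same comparisons gave 0 calls by edgeR and 8, 3 and 17 by DESeq2. With replicate 1 left out of the fit the count of cathepsins called stayed at 0 for each, with 1 member at an unadjusted p under 0.05 in replicate 4. Over all genes that fit called 82 of 14306 (0.573%) for replicate 2 and none for replicates 3 and 4. Over replicates 2 to 4 the coefficient of variation of TMM-scaled CPM was 10.6% for Ctsl, 10.02% for Ctsh, 9.18% for Ctsc and 7.76% for Ctsz, where over all 4 it had been 57.1%, 25.7%, 20.3% and 19.6%. For Ctss it was 8.03% over all 4 and 8.34% over replicates 2 to 4. Ctsd varied by 6.61% and Ctsb by 10.2% over those 3 libraries. The fall for Ctsl, Ctsh, Ctsc and Ctsz follows from their having been called for replicate 1, and is no further evidence.

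**Figure D2:**
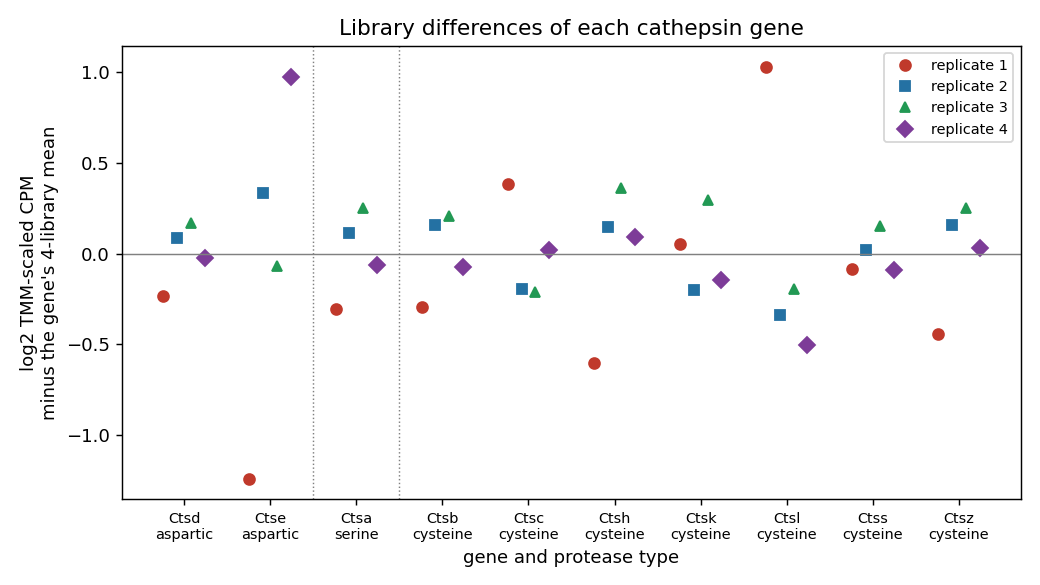
Log2 TMM-scaled CPM of each cathepsin gene in each library, minus the mean of the 4 libraries for that gene, grouped by protease type. Replicate 1 is the highest library for Ctsl and Ctsc and the lowest for Ctsd, Ctse, Ctsa, Ctsb, Ctsh and Ctsz, and lies within the range of the others for Ctsk and Ctss.

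Ratios of counts within a library do not depend on scaling between libraries, but they do not show which gene of a pair moved. The log2 ratio of Ctsl to Ctsh was 3.24 in replicate 1 and 1.12, 1.05 and 1.01 in replicates 2 to 4. For Ctsl to Ctsz it was 1.02 in replicate 1 and -0.95, -0.90 and -0.99 in the others, so the larger count of the pair changed sides. Against Ctsd, the ratio of Ctsl was -2.91 in replicate 1 and -4.59, -4.53 and -4.65 in the others. Each of these sets of 3 spanned at most 0.12, far less than the distance to replicate 1.

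Pairs without Ctsl moved less, by unlike amounts. For Ctsc to Ctsh the log2 ratio was 0.97 in replicate 1 and -0.37, -0.59 and -0.09 in replicates 2 to 4. Its range over replicates 2 to 4 was 0.50. Ctsh to Ctsd was -6.15 in replicate 1 and -5.72, -5.58 and -5.66 in the others. The log2 ratio of Ctsd to Ctsb was -0.42, -0.55, -0.52 and -0.43 in replicates 1 to 4, so replicate 1 lay next to replicate 4. That of Ctsa to Ctsd was -3.68, -3.58, -3.52 and -3.64. Ctsz to Ctsd was -3.93 in replicate 1 and -3.64, -3.63 and -3.66 in the others, whose range was 0.03. The aspartic Ctsd, the serine Ctsa and the cysteine Ctsb thus kept their proportions more closely across the 4 libraries, while the ratio of Ctsl to each of the 5 members it was set beside was highest in replicate 1.

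**Figure D3:**
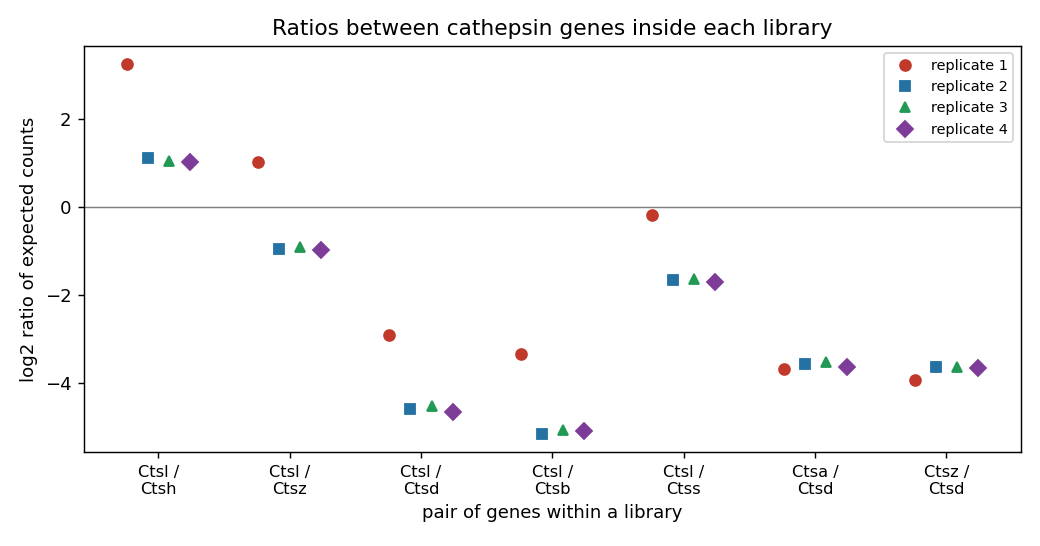
Log2 ratio of expected counts of pairs of cathepsin genes inside each library. The ratios with Ctsl on top set replicate 1 above replicates 2 to 4, by 1.49 for Ctss up to 2.18 for Ctsh, while Ctsa to Ctsd differs by 0.10 between replicate 1 and the mean of the rest.

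The transcript tables listed 52 isoforms of the 10 genes, and Ctsk and Ctsz had 1 each. The most abundant isoform was the same in both kinds of transcript table for 10 of 10 genes. Ctsl-201, which encodes the full protein, held 90.6%, 96.4%, 97.0% and 95.2% of Ctsl expression, and the short coding transcript Ctsl-204 held 7.89%, 1.68%, 1.10% and 0.70%. The share of Ctsl-204 was thus highest in the library with the most Ctsl. In the target tables it was 17.3% in replicate 1 and 9.33% to 10.5% in the others, higher throughout and in the same order for replicate 1. Ctsh had a transcript annotated for nonsense-mediated decay, Ctsh-202, with 38.7%, 39.0%, 45.9% and 35.1% of its expression. In the target tables that share was 22.2% to 29.2%.

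The share of the most abundant isoform depended on the table for Ctsd, and also for Ctsb, Ctsc and Ctsl. Mean shares were 88.3% for Ctsb-201, 80.7% for Ctsc-201 and 94.8% for Ctsl-201. In the target tables they were 63.2%, 68.9% and 76.6%. For Ctsa, Ctse, Ctsh and Ctss the means of both tables lay closer together. Ctsd-202 held 71.7%, 63.5%, 63.5% and 77.7% in the gene-table pipeline and Ctsd-201 most of the rest, 28.0%, 36.2%, 36.2% and 21.8%. The target tables gave Ctsd-202 97.0% to 99.5%. For Ctss, with transcripts of equal length, both tables gave Ctss-202 86.1% to 87.3%.

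Of the isoforms, 20 in 7 genes were annotated as retained introns. Their summed share of Ctsb expression was 13.3%, 4.99%, 4.57% and 24.02%, that of Ctsa 5.26%, 6.09%, 9.75% and 13.2%, and that of Ctsc 1.80%, 0.87%, 5.0% and 10.2%. In Ctsd and Ctsl it stayed under 1% in every library, with at most 0.51% and 0.80%, though in the target tables Ctsl reached 2.33% and 2.54% in replicates 3 and 4. The share was highest in replicate 4 for 6 of 7 genes, and in replicate 3 for Ctse. Ctse had a mean of 0.545 TPM, and in the target tables its share was highest in replicate 4 (9.66%). The background was 5919 genes with such transcripts, a mean of at least 1 TPM and a nonzero share, which leaves out Ctse. Among them the share was highest in replicate 4 for 54.6% and in replicate 3 for 33.9%. Replicate 4 thus led for most of these genes and not for cathepsins alone. The nuclear RNAs Malat1 (306, 242, 984 and 941 TPM) and Neat1 (35.1, 25.0, 115 and 79.4 TPM) had their highest levels in replicates 3 and 4, and their part in these shares was not tested. The target tables put the Ctsb share at 37.0%, 36.1%, 33.2% and 41.2%, so the size of the estimate rests on the table while replicate 4 is the highest in both.

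**Figure D4:**
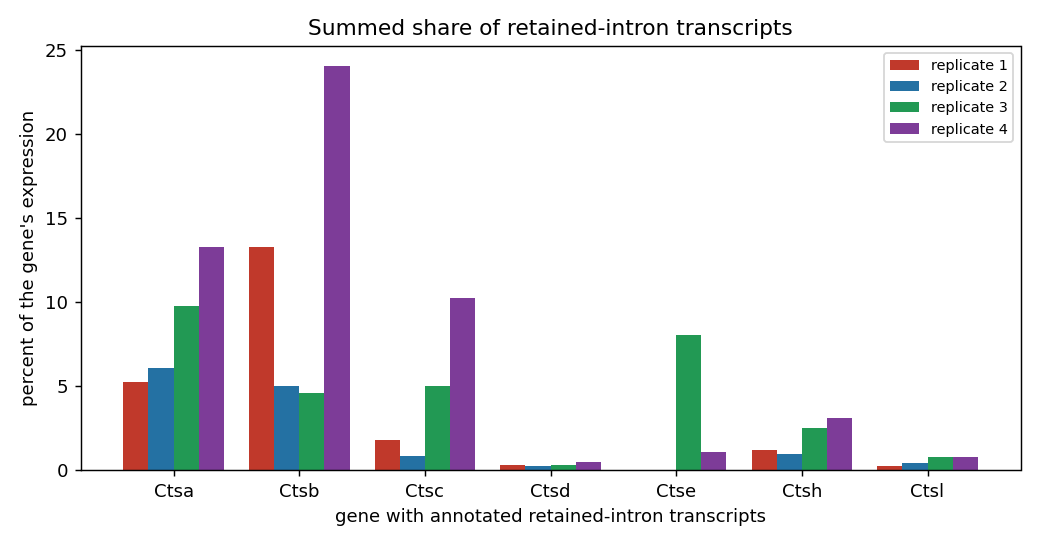
Summed share, in percent of the gene's expression, of annotated retained-intron transcripts in the 7 cathepsin genes that have them; each bar is 1 library. Replicate 4 has the highest bar for 6 of 7 genes, with 24.02% for Ctsb, and Ctsd and Ctsl stay under 1% in this table.

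Other genes of the system were read from lists of fixed content, which had been chosen with earlier results of these data known. Of 13 further cathepsins, 2 reached a mean of 1 TPM. Ctso, a ubiquitous cysteine cathepsin, had 9.28 ± 1.28 TPM, and Ctsf, which can also process the invariant chain in macrophages, had 3.23 ± 1.42 (SD, n = 4). Ctsf had 4.85, 10.4, 8.84 and 10.9 CPM and was lower in replicate 1 (log2 fold -1.05 ± 0.18 SE, edgeR adjusted p = 0.0177), the direction of Ctsh and Ctsz. Ctsg, the serine protease of neutrophil granules, had 2 to 9 counts per library, and Ctsw of cytotoxic lymphocytes 2 to 6. The other 9 (Cts3, Cts6, Cts7, Cts8, Ctsj, Ctsm, Ctsq, Ctsr and Ctsll3), on chromosome 13 like Ctsl and known from the placenta, had 0 counts in every library. None of the 7 granule serine proteases that cathepsin C can activate reached a mean of 1 TPM, with at most 42 counts, whereas Ctsc itself had 64.2 ± 23.9 TPM (SD, n = 4).

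Among 12 inhibitor genes 6 had enough counts to be tested, and 2 were higher and none lower in replicate 1, beside 14.5% and 7.58% of all genes tested. They are Ctla2a and Ctla2b, whose products resemble the propeptide of cathepsin L and inhibit proteases of that kind. Ctla2b had 111, 20.0, 17.2 and 19.6 CPM (log2 fold 2.55 ± 0.11 SE, edgeR adjusted p = 0.00142). Ctla2a had 18.3, 0.780, 0.746 and 0.624 CPM (log2 fold 4.67 ± 0.19 SE, edgeR adjusted p = 0.00142). Both therefore went in the direction of Ctsl. As near-identical genes that can share reads, at 60895350 to 60897447 and 60934155 to 60936625 on chromosome 13, their division is uncertain. The abundant inhibitors Cstb (347 ± 77.4 TPM) and Cst3 (298 ± 67.3 TPM, SD, n = 4) did not pass the test (edgeR adjusted p = 0.754 and 0.218).

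All 14 genes for the delivery and processing of cathepsins reached 1 TPM, led by Lgmn at 567 ± 61.8 TPM (SD, n = 4), the legumain that cuts several cathepsins into their 2-chain forms, and M6pr at 81.4 ± 21.1, a mannose 6-phosphate receptor. In replicate 1, 1 was higher and 1 lower, a smaller share than the 22.0% of all genes called in either direction. Vps26a, a retromer subunit and the third by TPM (50.7 ± 11.3, SD, n = 4), was not called (edgeR adjusted p = 0.560). Gnptab, the enzyme that starts the mannose 6-phosphate tag, was higher (log2 fold 0.87 ± 0.15 SE, edgeR adjusted p = 0.0170). Gga3, a sorting adaptor, was lower (log2 fold -0.47 ± 0.12 SE, edgeR adjusted p = 0.0460, and 0.0869 without replicate 3). Of the pair that cathepsin A protects, Glb1 was lower (log2 fold -0.46 ± 0.09 SE, edgeR adjusted p = 0.0231) and Neu1 was not called (adjusted p = 0.246). Gnptab was called in 12 of 12 settings, Glb1 in 10 and Gga3 in 8. The calls for Glb1 and Gga3 were lost when libraries were scaled by their totals alone (adjusted p = 0.136 and 0.202) and with the counts of the target tables (0.150 and 0.105).

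The MiT transcription factors, which bind the E-box of lysosomal promoters, were all expressed, Tfe3 at 29.5 ± 6.44 TPM, Tfeb at 11.1 ± 3.05 and Mitf at 11.0 ± 2.18 (SD, n = 4). Tfeb was lower in replicate 1, with 21.5, 34.5, 37.2 and 36.0 CPM (log2 fold -0.74 ± 0.10 SE, edgeR adjusted p = 0.0100), and the other 3 were not called. That is 1 of 4 factors, near the 22.0% of all genes called in replicate 1 in either direction. Of the 3 members with the E-box in their promoter window, Ctsl was called higher in that library, and Ctsa and Ctsd had log2 folds of -0.41 and -0.31 that did not pass the test.

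Of 5 genes for proteins that cathepsins cut or that bring them to the endosome, 3 were lower in replicate 1, where 7.58% of all genes tested were lower. Tlr9, the receptor for DNA that needs cathepsin cleavage to signal, had 16.1, 46.2, 52.9 and 50.7 CPM (log2 fold -1.63 ± 0.12 SE, edgeR adjusted p = 0.00346). Unc93b1, which carries these receptors to endosomes, was also lower (log2 fold -0.81 ± 0.12 SE, edgeR adjusted p = 0.0120), as was Tlr7, a receptor for single-stranded RNA (log2 fold -0.63 ± 0.15 SE, edgeR adjusted p = 0.0444, and 0.0675 without replicate 2). Tlr9 was called in 12 of 12 settings, Unc93b1 in 11 and Tlr7 in 9, the exceptions including the target tables for both Unc93b1 and Tlr7 (adjusted p = 0.0643 and 0.138). Cd74, the invariant chain trimmed by cathepsin S, had 94.5 ± 15.1 TPM (SD, n = 4) and a log2 fold of -0.53 ± 0.20 SE that did not pass the test. Tlr3, the remaining gene of the 5, was not lower in replicate 1 (log2 fold 0.08 ± 0.11 SE). Macrophage markers moved in both directions in the same library: Itgam (log2 fold 1.02, edgeR adjusted p = 0.00532) and Mrc1 (0.86, adjusted p = 0.0162, and 0.0576 without replicate 2) were higher and Mertk lower (-0.81, adjusted p = 0.0234). The most abundant markers did not pass the test: Lyz2 had a log2 fold of -0.25, Cd68 -0.16 and Csf1r -0.52 (edgeR adjusted p = 0.361, 0.402 and 0.0538). The part of these differences in those of the cathepsins was not tested.

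**Figure D5:**
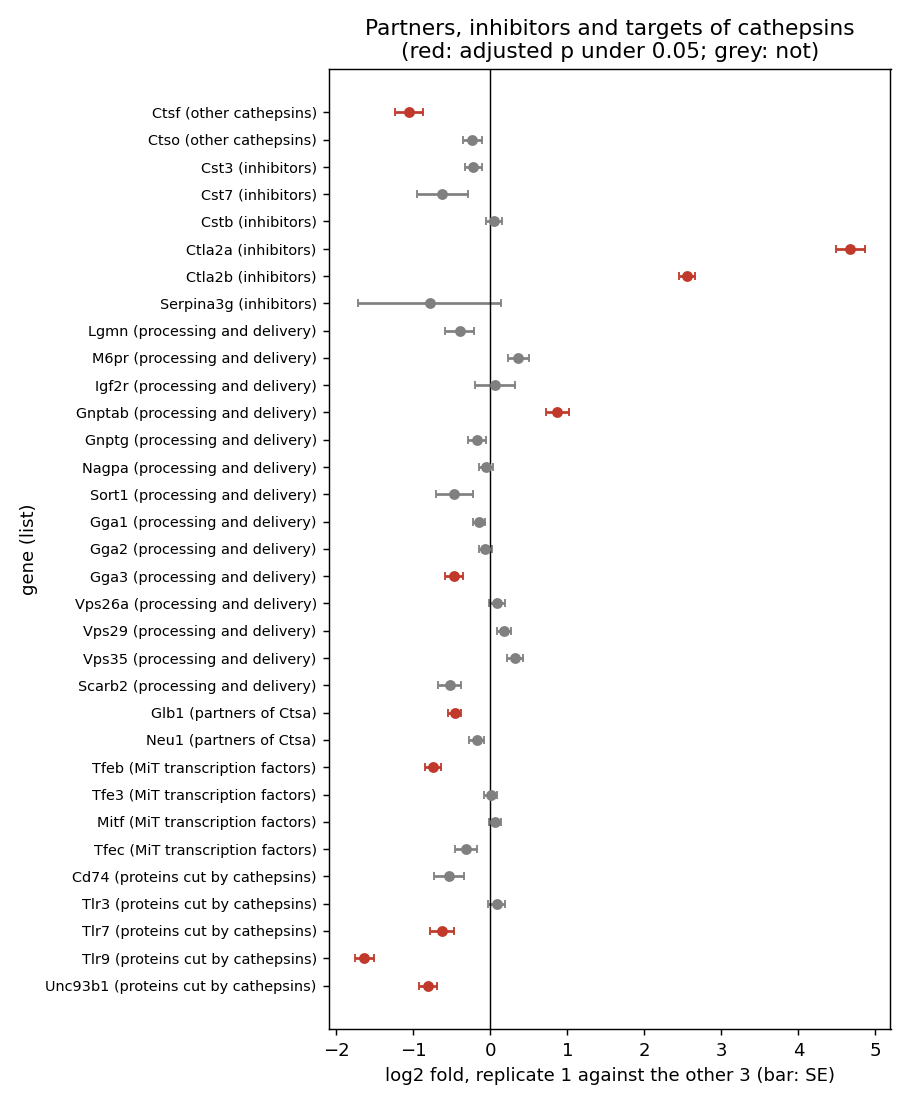
Log2 fold of replicate 1 against the other 3 libraries (points, with SE as bars) for the tested genes of 6 lists around the cathepsins; red marks an edgeR adjusted p under 0.05. Ctla2a and Ctla2b lie furthest to the right, at 4.67 and 2.55, and Tlr9 furthest to the left, at -1.63.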

How the data were processed

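Expected counts per gene, estimated counts per target and TPM were deposited by the authors for each of 4 libraries, per the file headers, as was the percent of each gene that falls to each isoform. The text deposited with them gives mm10, GENCODE M21, a transcriptome alignment for the gene tables and direct use of reads for the target tables. Aligner, quantifiers and any use of strand in counting: not given in the sources used here. Features naming no gene held 0.0267% to 0.407% of the expected counts and entered neither library sizes nor tests.

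Expected counts were rounded, and genes whose mean count reached 10 were scaled by TMM and tested with edgeR 4.0.16 (quasi-likelihood, each library against the other 3, Benjamini-Hochberg over all 14041 genes, R 4.3.3). A single library gives no estimate of its own spread, which is assumed to be that of the remaining 3. SE is the log2 fold divided by the square root of F. The script was tested on simulated data. DESeq2 1.42.0, limma voom 3.58.1, other scalings, filters, the target tables and leaving out each library were alternatives. TPM levels and isoform percent were described without a test. Members and lists were chosen with earlier results of these data known. The rule for names takes all members, every other cathepsin, and from each other list the 3 genes with the highest mean TPM and up to 3 called genes of largest fold whose mean TPM reached 1. Cell types and granule proteases whose markers were near 0 are given by counts only. Ly6g, Calcr and Tlr3, outside the rule, were named after their values were seen. Floors cover counting error only, because PCR copies cannot be told from molecules here.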

Additional observations from a re-analysis of the deposited data

Results flagged for a closer look

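Of 13 sets of 4 values examined (the TMM-scaled CPM of the 10 cathepsins and the 3 protease-type shares), 1 held a library far from the others by Dixon's ratio. It was Ctsl, at 1491 CPM in replicate 1, with a gap to the nearest library of 0.875 of the whole range. On the log2 scale the ratio was 0.799, below the critical value for 4 samples. Chance flags about 1 in 20 such sets.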

How the results depend on the processing

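No paired analysis was possible because the 4 libraries form 1 group. The count of 4 cathepsins called for replicate 1 became 2 with DESeq2's size factors in edgeR and 7 with DESeq2, and ran from 2 to 7 when 1 library was left out (2 without replicate 2 or 3, 7 without replicate 4). Fewer libraries enter those last fits. None of the alternative settings kept the count of the main fit. Upper quartile scaling, library totals alone, limma voom and a mean count of at least 100 each lost the call for Ctsc. No filter beyond a nonzero count and the target tables each lost that for Ctsz. The cause of these changes was not tested for any setting. Scaling by library totals moved the median log2 fold of all genes to 0.11, and upper quartile scaling moved it to -0.10. The log2 fold of Ctsk in replicate 1, 0.05, turned to -0.0353 with upper quartile scaling, to -0.00779 with a mean count of at least 100, and ran from -0.0884 (without replicate 4) to 0.222 (without replicate 3). That of Ctss, -0.12, turned to 0.0384 with the target tables. Both were uncalled throughout. Every other member kept its direction in the settings run. The protease-type shares became 41.5% aspartic and 54.5% cysteine with the TPM of the target tables, and 35.8%, 61.3% and 2.94% serine with expected counts, which are not corrected for length. Mean TPM of members in the target tables ran lower than in the gene tables, 1439 against 4204 for Ctsd. Depth limits Ctse and Ctsk most, with 20 to 140 counts.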
